A study of Drosophila melanogaster with 19 samples.

Results

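The junctions described here are the back-splice junctions that the deposited tables assign to plexA, Sema-1a, Lar, Eph, lea or dock, 6 genes of axon guidance in the fruit fly. They were found by the host gene written beside each junction, and they number 32 of the 5323 junctions listed in the series. Of these, 31 were listed in heads (of 4515), 5 in S2 cells (of 1280) and 4 in the stranded head library (of 447). By gene there were 9 junctions of plexA, 7 of Sema-1a, 6 of Lar, 5 of lea, 4 of Eph and 1 of dock. In the BDGP6 annotation plexA is PlexA (FBgn0025741), Sema-1a is Sema1a (FBgn0011259), Lar is FBgn0000464, Eph is FBgn0025936, lea is robo2 (FBgn0002543) and dock is FBgn0010583.

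Growing axons steer by receptors on their tips that read attractive and repulsive cues and pass the reading to the cytoskeleton. Semaphorins, Slits and ephrins are such cues, and plexins, Robo receptors and Eph kinases are their receptors; receptor phosphatases such as Lar and adaptors such as Dock act beside or below them. Many genes expressed in neurons also give rise to circular RNAs, which form when the end of an exon is spliced back to the start of the same or an earlier exon. A read across that joint, a back-splice read, is taken here as a sign of the circle, and it says nothing of the level of the linear mRNA. Junctions are called circles below for short, and whether each comes from a circular RNA was not tested.

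RNA came from heads of flies with the C4 allele, which makes RNA polymerase II elongate slowly (called slow in the titles), and from heads of wild-type Canton-S flies (WT). The titles divide each genotype by the numbers 29 and 18, with a meaning not given in the sources used here, into slow29, slow18, WT29 and WT18, with replicates 1 and 2 of each. Every one of these 8 RNA samples gave a library treated with RNase R, an exonuclease that digests linear RNA from its free end, and a mock-treated library, and the remaining libraries were S2 cells with RNase R, S2 cells without it (a cultured embryonic line) and a stranded library of WT heads. The labels do not say whether the replicates were separate collections of flies, so the spread among these RNA samples may be technical in part. The tests below pool that spread over all tested junctions, so a p-value does not measure the spread of 1 junction alone. The labels give no age or sex and do not say how many flies went into a sample.

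Listed back-splice reads totalled 4871 to 20254 per RNase R head library and 800 to 3427 per mock head library, 14874 in S2 cells with RNase R, 4421 in S2 cells without it and 2599 in the stranded library. Values below are reads per 10000 of the back-splice reads listed for that library, so they are shares, and a share falls when other junctions gain reads. A count at a joint carries no gene length. Only some tissue markers had circles to check the labels with: the photoreceptor genes ninaE, trp and eys all had listed junctions in heads and none in S2 cells, while the neuronal genes elav, nSyb and Syt1 and the glial gene repo had none in either. Of the other neuronal markers, brp and cac had junctions in heads and none in S2 cells. The muscle genes Mhc, bt and sls and the fat body genes Yp1, Yp2 and Yp3 also had junctions in heads alone. Of the 4 hemocyte genes Hml, Ppn, Pxn and NimC1, 3 had junctions in heads (194 reads) and 1 in S2 cells (30 reads).

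Most of the reads of the 6 genes came from 1 circle. The 31 head junctions held 1510 reads over the 16 head libraries, of which plexA had 1138, Lar 160, Sema-1a 141, Eph 27, lea 27 and dock 17. A single plexA junction held 1120 of them, or 74.2%. The next was a Lar junction with 119 reads, 9 junctions in all had 10 or more, and 22 had fewer than 10. Those 9 were the ones tested in the RNase R libraries, and 2 of them, 1 of plexA and 1 of Sema-1a, had enough reads for a test in the mock libraries.

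**Figure D1:**
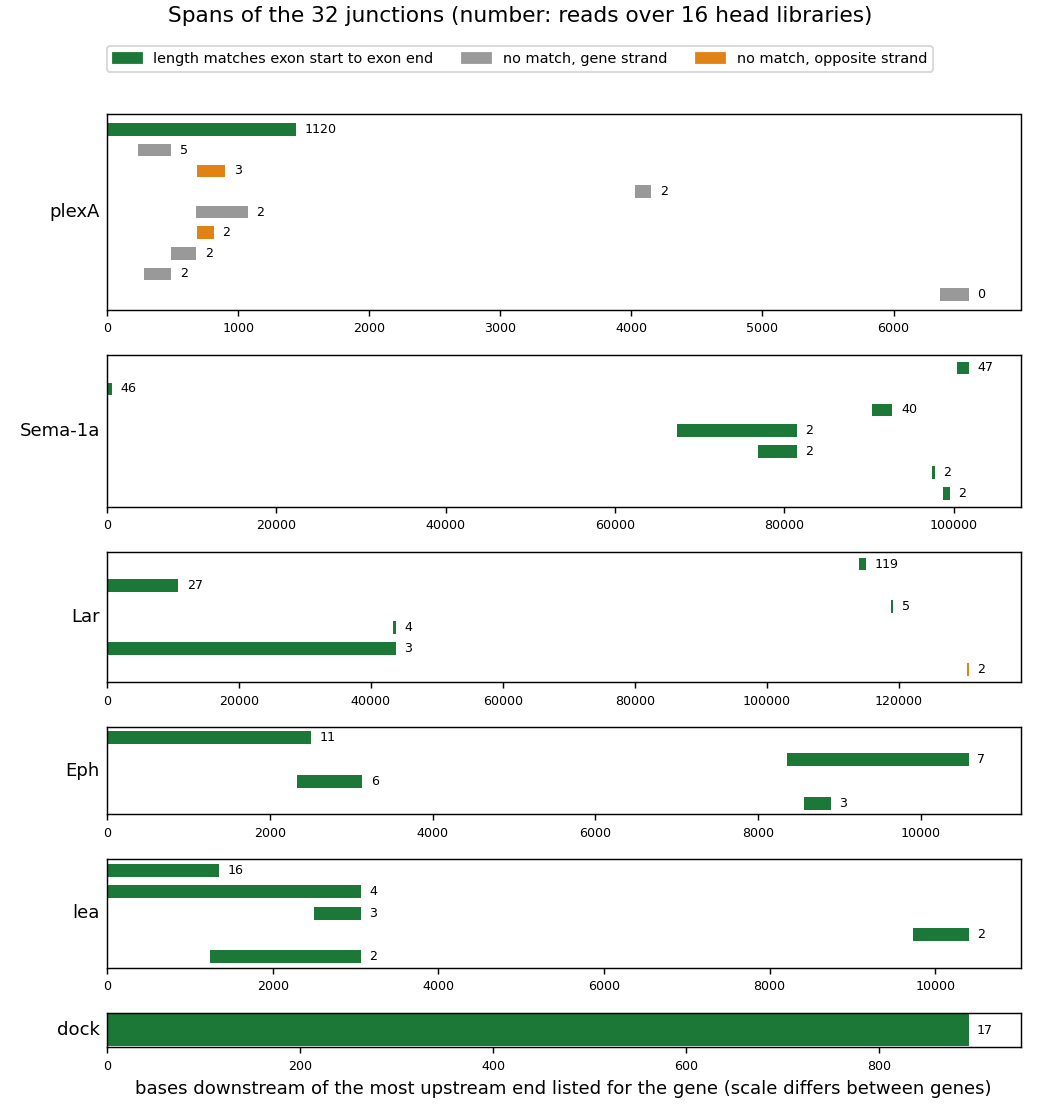
Each bar is the span of 1 of the 32 junctions, drawn in bases from the most upstream end listed for its gene (x axis, a different scale for each gene), with its reads over the 16 head libraries beside it. The plexA bar with 1120 reads contains 6 of the other 8 plexA spans, while the Lar and Sema-1a spans lie far apart along their genes.

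The spans of the 32 junctions had a median of 737 bases and lay between 126 and 43778 bases. The coordinates below are those of the tables, on dm3, and exons were assigned by length alone: a junction was matched where exactly 1 pair of an exon start and an exon end of its gene in the BDGP6 annotation lies as far apart. Such a match was found for 23 of the 32. With any number of matching pairs and either strand allowed it was also 23 (71.9%), against 3022 of 4981 (60.7%) over all junctions of genes found in the annotation. Within each gene that had several matched junctions (not plexA or dock), these shared 1 offset between the builds. Of the 23, 4 matched a single exon. In 5 of the 6 genes (not Sema-1a) at least 1 junction began at exon 2 of a transcript, 8 junctions in all.

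Of the 9 unmatched junctions 8 were of plexA. They comprised 6 plexA junctions on the strand of the gene and 3 junctions listed on the opposite strand, 2 of plexA and 1 of Lar. Each had at most 5 head reads. The head libraries other than the stranded one did not keep the strand of the RNA, so a strand there is the one the tables assign, and none of the 3 opposite-strand junctions was listed in the stranded library.

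The circle of plexA, the gene of the semaphorin receptor Plexin A, was among the most abundant in these heads. Its main junction, 4:1042868-1044306 on the minus strand, spans 1439 bases and matched exon 2, a single exon that is partly coding. It ranked 9 of 4334 junctions by mean share in RNase R heads and 3 of 2339 in mock heads. The main junction carried 98.4% of the plexA head reads. The 6 plexA junctions that lie within its span had 16 head reads together, and the junction just inside it, 4:1043817-1044066, had 5, all of them in the 29 RNase R libraries.

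The share of the plexA circle was lower with RNase R than with mock treatment. In RNase R heads the main junction had at the lowest 57.4, at the median 85.7 and at the highest 99.9 reads per 10000, against 188, 230 and 271 in mock heads. All 8 RNase R libraries lay below all 8 mock libraries. The means were 82.3 ± 14.1 in RNase R heads and 230 ± 28.6 in mock heads (SD, n = 8 each), a log2 fold change of -1.68 ± 0.16 (SE; edgeR's quasi-likelihood test with RNA samples as blocks, Benjamini-Hochberg adjusted p = 2.85e-24). Both replicate tables showed it: 87.8 ± 8.47 in RNase R heads and 226 ± 29.4 in mock heads among replicates 1, and 76.8 ± 17.6 in RNase R heads and 235 ± 31.4 in mock heads among replicates 2 (SD, n = 4 each).

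Counted as reads and not as a share, the plexA circle had more reads in the RNase R libraries. The total reads sequenced per library were not among the values used here. These counts therefore do not show how frequent the circle was in the RNA. The main junction had 44 to 173 reads (median 108) in RNase R heads and 15 to 75 reads (median 32.5) in mock heads, and every one of the 8 RNA samples had more reads in its RNase R library, by 1.24 to 5.05 times (median 3.01). Over the same 8 RNA samples all listed back-splice reads together were 4.64 to 19.1 times as many (median 7.41). The ratio of the RNase R share to the mock share therefore lay between 0.264 and 0.456.

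The size of this difference depended on the scaling of the libraries, which moved the median log2 fold change of all tested junctions. That median was 0.26 with factors from the 100 most abundant junctions, 1.12 with factors from all tested junctions and 0.56 with relative log expression factors. The plexA difference was -0.66 with factors from all junctions and -1.38 with relative log expression factors, and it was called in each (adjusted p at most 0.00571). Relative to the median of all junctions it was -1.94 as fitted, -1.78 with factors from all junctions and -1.94 with relative log expression factors. Host genes of some tissue markers were also lower with RNase R, and others were not. Junctions of the 3 photoreceptor genes summed to 16.2 to 32.8 per 10000 in RNase R heads and 183 to 387 in mock heads, and those of the muscle genes Mhc, bt and sls to 12.3 to 75.1 in RNase R heads and 90.5 to 338 in mock heads. Those of the fat body genes Yp1, Yp2 and Yp3 lay at 1.48 to 11.4 in RNase R heads and 9.44 to 50 in mock heads, ranges that overlap. The ranges also overlapped for the neuronal genes, with 18 to 36.9 in RNase R heads and 11.4 to 33.3 in mock heads, and for the hemocyte genes, with 4.90 to 30.8 in RNase R heads and 0 to 18.9 in mock heads. The plexA share was lower with RNase R within each of the 8 pairs of libraries from 1 RNA sample, and the cause was not tested.

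**Figure D2:**
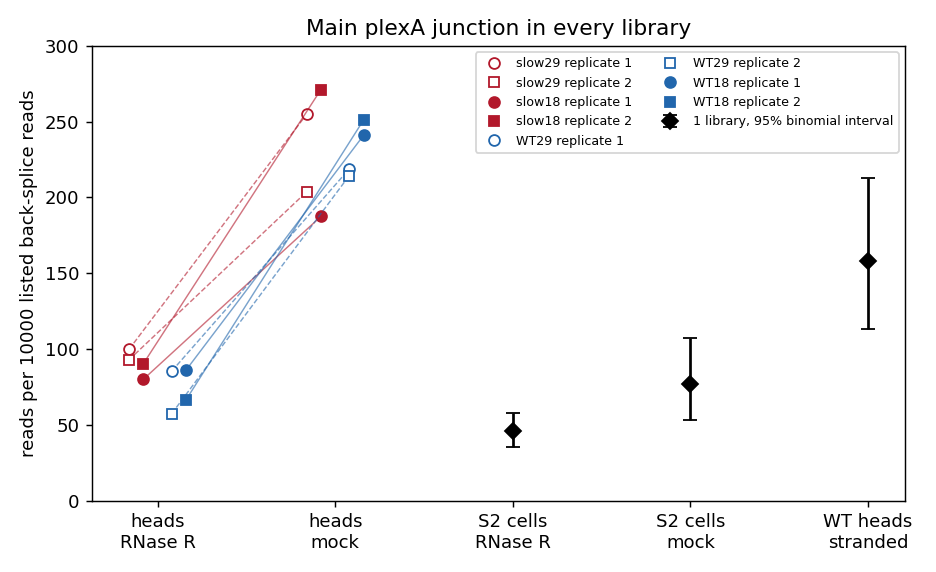
Share of the main plexA junction (y axis, reads per 10000 listed back-splice reads) in every library, with lines joining the RNase R and mock libraries of 1 RNA sample. The 8 RNase R head libraries lie between 57.4 and 99.9 and the 8 mock head libraries between 188 and 271; diamonds are single libraries with 95% binomial intervals that cover counting error only.

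The plexA circle was not shown to differ between genotypes or title numbers. In these comparisons of bulk RNA, fewer cells of a type and less RNA per cell cannot be told apart. In slow RNase R heads the main junction had 80.0, 90.3, 93.0 and 99.9 reads per 10000, and in WT RNase R heads 57.4, 66.4, 85.4 and 86.0, so that 1 slow library lay among the WT values. The means were 90.8 ± 8.24 in slow heads and 73.8 ± 14.2 in WT heads (SD, n = 4 each), with a log2 fold change of 0.39 ± 0.19 and a 95% interval of 0.03 to 0.75 (edgeR unadjusted p = 0.0349, Benjamini-Hochberg adjusted p = 0.313). In mock heads the values were 229 ± 40.0 for slow and 231 ± 17.6 for WT (log2 fold change 0.07 ± 0.29, edgeR adjusted p = 0.969), a difference whose sign turned with factors from all junctions (-0.13). All plexA junctions summed gave 0.47 ± 0.17 for slow against WT in RNase R heads (edgeR adjusted p = 0.0744).

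Between the title numbers, the main plexA junction averaged 83.9 ± 18.6 at 29 and 80.7 ± 10.4 at 18 in RNase R heads (SD, n = 4 each). The log2 fold change was -0.11 ± 0.19 (edgeR adjusted p = 0.742), and its sign depended on the scaling, being 0.22 with factors from all junctions and 0.20 with relative log expression factors or DESeq2. In mock heads it was 223 ± 22.2 at 29 and 238 ± 35.7 at 18 (-0.14 ± 0.29, edgeR adjusted p = 0.84), or 0.12 on the log2 scale with factors from all junctions. The 95% intervals were -0.48 to 0.25 in RNase R heads and -0.71 to 0.43 in mock heads. Neither the genotype nor the title number separated the libraries of this circle without overlap.

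The plexA circle was also the member seen best outside the paired head libraries. S2 cells had 68 reads with RNase R, or 45.7 per 10000 (35.5 to 57.9), and 34 reads in mock, or 76.9 per 10000 (53.3 to 107; exact Clopper-Pearson binomial intervals at 95%, counting error only). The stranded library of WT heads had 41 reads on the minus strand, the strand of the gene, or 158 per 10000 (113 to 213), beside 231 ± 17.6 in the 4 WT mock head libraries. With 1 library each, the S2 and stranded values have no replicate check. The stranded library listed no junction with 1 read, while each WT mock head library listed many. Its share and theirs therefore rest on unlike totals. A plexA junction of 223 bases, 4:1037733-1037955, was listed in S2 cells alone, with 2 reads after RNase R.

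Sema-1a encodes a transmembrane semaphorin, a ligand of Plexin A that in flies also signals as a receptor. Its reads were divided mostly among 3 circles with nearly equal read counts. The junction 2L:8664158-8665518 (plus strand, 1361 bases) had 47 head reads and matched 2 exons from exon 21, partly coding, with 136 exon bases. The junction 2L:8563739-8564296 had 46 reads and matched a single partly coding exon of 558 bases. The junction 2L:8654105-8656506 had 40 reads and matched 6 coding exons with 685 exon bases. The other 4 Sema-1a junctions had 2 reads each.

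None of the 3 Sema-1a circles passed the test between treatments. The first had at the lowest 1.24, at the median 3.78 and at the highest 6.53 reads per 10000 in RNase R heads, against 0, 9.35 and 25.4 in mock heads. These ranges overlap, and the log2 fold change was -1.53 ± 0.53 (edgeR unadjusted p = 0.00405, Benjamini-Hochberg adjusted p = 0.0543). Its adjusted p was 0.028 in a fit without the RNA sample as a block, and 0.0491, 0.0295 and 0.0453 when the RNA sample WT29 replicate 2, slow18 replicate 1 or slow18 replicate 2 was left out, within a range of 0.028 to 0.373 over all alternatives. The second circle gave -0.40 ± 0.66 and the third -0.48 ± 0.67 (edgeR adjusted p of 0.822 and 0.783).

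The Sema-1a circles likewise did not pass between title numbers or genotypes in RNase R heads. Between 29 and 18 their log2 fold changes ran from -0.57 to -0.36 (edgeR adjusted p from 0.551 to 0.718), and between slow and WT from -0.40 to 0.01 (0.854 to 0.998). Summed over its junctions, Sema-1a had 5.58 to 11.95 per 10000 in the 4 libraries of 29 and 12.6 to 16.4 in those of 18, ranges that do not overlap, with a log2 fold change of -0.51 ± 0.32 (edgeR adjusted p = 0.3). In mock heads the first circle gave -1.03 ± 0.84 between 29 and 18 and -1.52 ± 0.97 between slow and WT (edgeR adjusted p of 0.529 and 0.684). The mock sums were 0 to 11.3 per 10000 in slow heads (3 reads) and 11.4 to 31.7 in WT heads (22 reads). These ranges do not overlap and were not tested. In S2 cells only the third circle was listed, with 1 read in each library, and the stranded library had 4 reads of it.

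Lar encodes a receptor tyrosine phosphatase that in flies guides axons and shapes synapses, among others in the photoreceptors. A single one of its circles was far less frequent in heads labelled 29 than in heads labelled 18. The junction 2L:19714889-19715953 (plus strand, 1065 bases) matched 2 coding exons with 294 exon bases, beginning at exon 8 to 11 depending on the transcript. In RNase R heads it had 0 and 2.48 reads per 10000 in slow29, 0.99 and 0.80 in WT29, 16.3 and 16.4 in slow18, and 27.9 and 34.1 in WT18. These were 0, 4, 2 and 1 reads in the libraries of 29, and 10, 8, 34 and 57 reads in those of 18. Every library of 29 lay below every library of 18, in both genotypes and in both replicate tables.

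The mean for this Lar circle was 1.07 ± 1.04 at 29 and 23.7 ± 8.81 at 18 (SD, n = 4 each). The log2 fold change was -4.44 ± 0.44 (edgeR's quasi-likelihood test, Benjamini-Hochberg adjusted p = 1.46e-21), which ranked 3 of 1221 tested junctions by p. It was called under each of the 8 other settings and with each library left out, with log2 fold changes from -5.23 to -4.03 and adjusted p of at most 1.78e-08 in edgeR and DESeq2. The libraries of 29 held 11115 to 20254 listed back-splice reads and those of 18 held 4871 to 16714, ranges that overlap. In mock heads this circle had 1 read in each of 3 libraries (WT29 replicate 2 and both WT18 libraries), too few for a test.

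The rest of Lar did not show this difference. The other 5 Lar junctions summed to 4.08 ± 0.74 per 10000 at 29 and 3.83 ± 3.40 at 18 (SD, n = 4 each). The main junction accordingly made up 22.6% of the Lar reads at 29 and 88.6% at 18. The second Lar circle, 2L:19600858-19611626, which begins at exon 2, spans 10769 bases and has 397 exon bases, averaged 2.53 ± 0.69 at 29 and 2.60 ± 2.59 at 18 (log2 fold change 0.08 ± 0.68, edgeR adjusted p = 0.958). All Lar junctions summed gave -2.48 ± 0.31 between 29 and 18 (edgeR adjusted p = 2.66e-13).

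**Figure D3:**
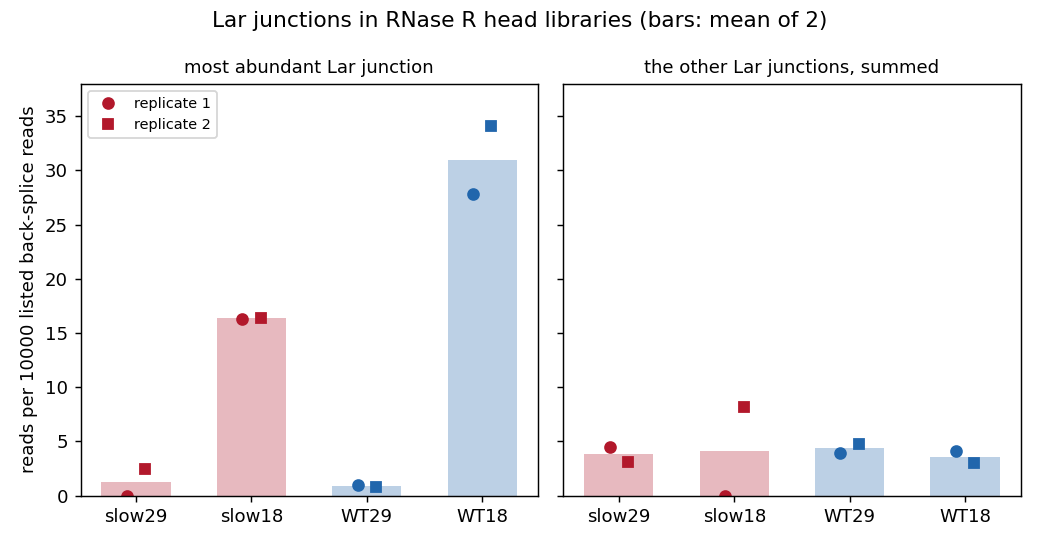
Shares of the most abundant Lar junction and of the other 5 Lar junctions summed (y axis, reads per 10000 listed back-splice reads) in the RNase R head libraries, with 2 libraries per group and bars at their mean. The main junction lies at 2.48 or below in the libraries of 29 and at 16.3 or above in those of 18, while the other junctions overlap.

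Within the genotypes the log2 difference between 29 and 18 of the main Lar circle was -3.57 in slow heads and -5.10 in WT heads, and the difference between these was not called (1.53 ± 1.16, edgeR adjusted p = 0.927). Slow and WT heads overlapped over all RNase R libraries, with a log2 fold change of -0.62 ± 0.40 (edgeR adjusted p = 0.507). That overlap pools the title numbers. Among the libraries of 18, slow lay at 16.3 and 16.4 per 10000 and WT at 27.9 and 34.1. The log2 difference between slow and WT was -0.835 at 18 and 0.695 at 29, the latter on 0 to 4 reads per library. Between RNase R and mock heads the circle averaged 12.4 ± 13.4 and 2.68 ± 4.25 (SD, n = 8 each), with a log2 fold change of 1.73 ± 0.71 that was not called (edgeR adjusted p = 0.144). It was called as higher with factors from all junctions (2.79, edgeR adjusted p = 0.000421) and with relative log expression factors (2.06, edgeR adjusted p = 0.0318), and over all alternatives the adjusted p lay between 0.000421 and 0.404. The main Lar circle was not listed in S2 cells or in the stranded library. A Lar junction of a single coding exon, 2L:19719703-19719999, had 5 head reads and 2 reads in S2 cells after RNase R.

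Eph encodes the Eph receptor tyrosine kinase, which binds the membrane-bound ephrin. Its most abundant circle, 4:631911-634421 (plus strand, 2511 bases, 3 or 4 exons from exon 2, partly coding), had no read in the RNase R libraries of 29. There were 0 reads in each of the 4 libraries of 29 (of 60051 listed reads), against 4 and 1 reads in slow18 and 2 and 3 reads in WT18 (of 39915). As shares, the libraries of 18 lay at 6.53, 2.05, 1.64 and 1.79 per 10000 in the same order. The groups do not overlap. With a floor of 3 counts set for the libraries of 29 together, the share was 5.01-fold lower there. This value leaves out the counting error of the reads at 18, so it is not a lower bound.

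This Eph difference was called in edgeR (Benjamini-Hochberg adjusted p = 0.000794) on 10 reads in all. Those 10 reads are the minimum for a test and all lay in the libraries of 18. The circle thus entered the test only through the group where it is high, and the call depends in part on that filter. DESeq2 gave the circle no adjusted p, and there its unadjusted p did not pass 0.05. With any 1 library of 29 left out, edgeR's adjusted p was at most 0.0103, but those libraries held no read of it. With any library of 18 left out fewer than 10 reads remained and the circle was not tested. The mock libraries had 1 read of it, in WT29 replicate 2. The other Eph junctions had 3 to 7 head reads each and ran in the opposite direction. In RNase R heads they had 10 reads together at 29 and 2 reads at 18. Their summed shares were 0 to 2.96 per 10000 at 29 and 0 to 0.819 at 18. These ranges overlap and were not tested. The Eph sum, with all its junctions, gave -0.96 ± 0.71 between 29 and 18 (edgeR adjusted p = 0.406).

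The gene lea encodes Robo2, a receptor of the repellent Slit that sets how far from the midline axons run in the fly embryo. Its main circle, 2L:1395903-1397252 (minus strand, 1350 bases), matched 2 coding exons from exon 2 with 294 exon bases. In RNase R heads it had 0 and 1 reads in slow29, 2 and 1 in WT29, 0 and 0 in slow18, and 7 and 4 in WT18. The reads thus lay mostly in WT18. The log2 fold change was -1.74 ± 0.86 between 29 and 18 (edgeR unadjusted p = 0.043, adjusted p = 0.165) and -2.34 ± 1.14 between slow and WT (edgeR unadjusted p = 0.0398, adjusted p = 0.32), and neither passed. Without slow29 replicate 2, the slow library with a read of it, the value between slow and WT was -4.54 (edgeR adjusted p = 0.277, within 0.274 to 0.59 over all alternatives). Of the 5 lea junctions, 3 share the end 1394192, with partner ends that add 2, 3 or 4 coding exons. The shortest of these 3 had 1 read in each S2 library.

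The adaptor gene dock, whose SH2 and SH3 domain protein links guidance receptors to actin regulators, had 1 junction. It was 2L:829457-830349 (plus strand, 893 bases), 2 exons from exon 2 with 720 exon bases, partly coding. In RNase R heads it had 1 and 3 reads in slow29, 3 and 0 in WT29, 0 and 3 in slow18, and 1 and 5 in WT18. The libraries of each group overlapped. Neither the title number (log2 fold change -1.15 ± 0.81, edgeR adjusted p = 0.379) nor the genotype (0.60 ± 0.82, edgeR adjusted p = 0.832) passed, and mock heads had 1 read.

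**Figure D4:**
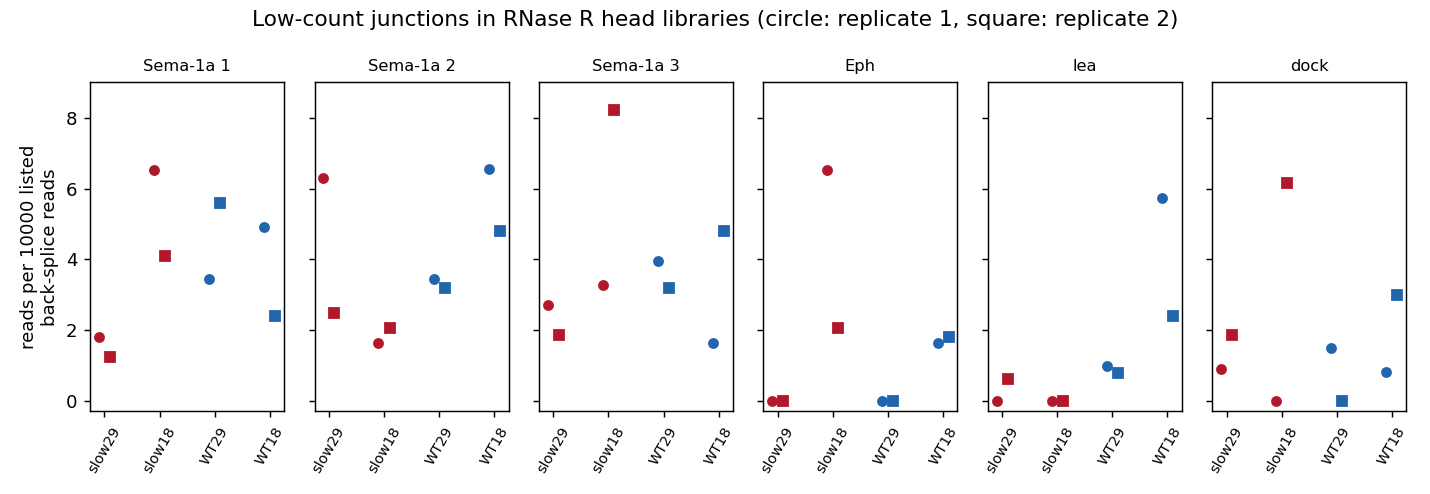
Shares of the tested Sema-1a (1, 2 and 3, in the order of their head reads), Eph, lea and dock junctions (y axis, reads per 10000 listed back-splice reads) in the RNase R head libraries by group, slow in red and WT in blue. Eph lies at 0 in the 4 libraries of 29 and above 0 in the 4 of 18; each of the other junctions overlaps between 29 and 18.

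Over the 6 genes, 1 of the 9 tested junctions was called between RNase R and mock heads, the lower plexA circle, against 7.31% of 1354 tested junctions called in either direction, 1.11% higher and 6.20% lower. That split depended on the scaling, with 15 higher and 84 lower as fitted, 252 higher and 53 lower with factors from all junctions, and 50 higher and 69 lower with relative log expression factors. Between 29 and 18 in RNase R heads 2 of the 9 were called, both lower, against 15.2% of 1221 called, 4.75% higher and 10.5% lower. This split too depended on the scaling, with 58 higher and 128 lower as fitted but 94 higher and 74 lower with factors from all junctions. Between slow and WT in RNase R heads 0 of 9 were called by edgeR, against 3.19% of 1221, 1.15% higher and 2.05% lower (14 higher and 25 lower as fitted, 17 and 19 with relative log expression factors). There, 2 of the 9 had an unadjusted edgeR p below 0.05, and DESeq2 called 0 of the 2 to which it gave an adjusted p, with 1 unadjusted p below 0.05. Such small numbers lie near the background, and the members cannot be set apart from other junctions by them.

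In mock heads 0 of the 2 tested junctions were called between 29 and 18 by edgeR or DESeq2 (0 with unadjusted p below 0.05), against 5.22% of 230, 1.74% higher and 3.48% lower (4 higher and 8 lower as fitted, 6 and 5 with factors from all junctions). Between slow and WT 0 of 2 were called by either tool (0 unadjusted), against 0% of 230, where edgeR had 14 and DESeq2 2 with unadjusted p below 0.05. Neither genotype interaction called a member in edgeR or DESeq2 (0 of 9 each, 0 unadjusted), and none of the 1221 or 1354 tested junctions was called (0% of each; for genotype by title number 51 with unadjusted p below 0.05 in edgeR and 5 in DESeq2, and for genotype by treatment 22 and 1). The median log2 fold change of the 9 junctions was 0.16 between RNase R and mock (0.26 over all tested junctions), -0.57 between 29 and 18 (-0.23) and -0.07 between slow and WT (-0.08). Summed by host gene, 1 of 6 was called between RNase R and mock (plexA, lower), against 9.51% of 894 genes, 2.01% higher and 7.49% lower. As fitted 18 genes were higher and 67 lower, with factors from all genes 151 higher and 49 lower, and with relative log expression factors 57 higher and 53 lower. Between 29 and 18 it was 1 of 6 (Lar, lower), against 15.4% of 829, 5.55% higher and 9.89% lower (46 higher and 82 lower as fitted, 63 and 59 with factors from all genes). Between slow and WT edgeR called 0 of 6 (1 unadjusted) and DESeq2 0 of 3 (1 unadjusted), against 5.07% of 829, 2.90% higher and 2.17% lower (24 higher and 18 lower as fitted, 20 and 27 with factors from all genes).

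**Figure D5:**
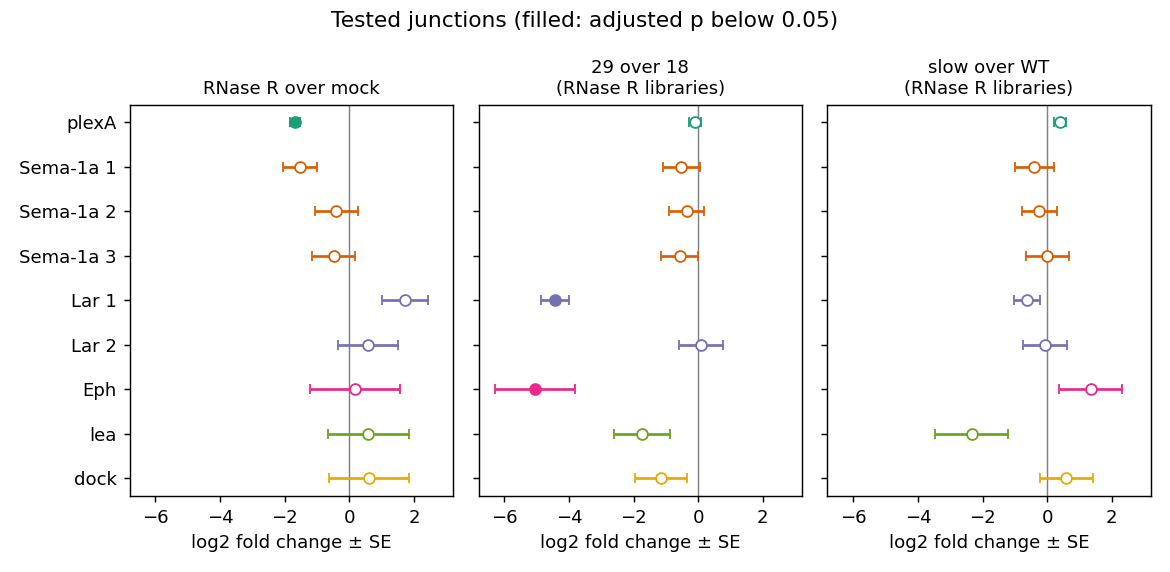
Log2 fold changes with SE (x axis) of the 9 tested junctions in RNase R against mock heads, 29 against 18 and slow against WT, the last 2 in RNase R libraries; Sema-1a and Lar junctions are numbered by their head reads. Filled points have an edgeR adjusted p below 0.05: plexA between treatments, and the most abundant Lar junction and Eph between 29 and 18; the Eph value rests on 0 reads at 29 and is no bound.

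Taken as a sum, the 5 genes other than plexA had 19.4 ± 2.73 reads per 10000 at 29 and 51.3 ± 9.76 at 18 in RNase R heads (SD, n = 4 each), with 16.1 to 22.7 at 29 and 37.6 to 59.0 at 18. These ranges do not overlap, and the main Lar circle made up 1.07 of the mean at 29 and 23.7 of that at 18. The 6 genes together had 106 ± 18.8 at 29 and 132 ± 13.2 at 18. Between treatments the 5 genes other than plexA had 35.4 ± 18.3 in RNase R heads and 23.2 ± 14.8 in mock heads (SD, n = 8 each), which overlap. These sums are given as descriptions, without a test.

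The other genes of axon guidance were counted on a list of 56, among them further semaphorins, Robo and Netrin receptors, receptor phosphatases and cytoskeletal effectors. Of these, 27 had 83 listed head junctions. Between RNase R and mock heads 0 of 21 tested junctions in 16 genes were called in edgeR (3 unadjusted, DESeq2 0 and 1), against 7.31% of all tested junctions. Between 29 and 18 it was 0 of 19 (6 unadjusted, DESeq2 0 and 1), against 15.2%. Between slow and WT 1 of 19 was called by edgeR, lower in slow heads, against 3.19% of all tested junctions. It was a junction of trio (3L:1003396-1003821), with a log2 fold change of -1.54 ± 0.42 (edgeR adjusted p = 0.012). DESeq2 called 0 of the 2 junctions to which it gave an adjusted p. The trio sum gave -1.32 ± 0.35 (edgeR adjusted p = 0.00667), 1 of 20 gene sums called against 5.07% of all. DESeq2 called 1 of the 5 sums to which it gave an adjusted p. Between 29 and 18, 3 of 20 gene sums were called, near the 15.4% called over all tested gene sums. Drl-2, a Wnt5 receptor of the Ryk family, was higher (2.53 ± 0.92). The glypican gene dlp (-1.21 ± 0.42) and the immunoglobulin gene tutl (-1.47 ± 0.54) were lower (edgeR adjusted p of the 3 from 0.0339 to 0.0419). DESeq2 called 0 of the 9 sums to which it gave an adjusted p.

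For each gene's most abundant circle, the 2 junctions of other genes with the most similar pattern were sought among 315 junctions with at least 50 reads, by Pearson's correlation of log2(reads per 10000 + 1) over the 8 RNase R head libraries. The main Lar circle was most like circles of Bsg, a cell surface immunoglobulin protein (r = 0.961), and SelR, a methionine sulfoxide reductase (r = 0.953). The plexA circle was most like circles of CG17816 (r = 0.917) and seq (r = 0.746), and the Eph circle like circles of bt, which encodes the muscle protein projectin (r = 0.98), and rdo (r = 0.955). For lea they were Caps (r = 0.959) and det (r = 0.9), for Sema-1a SK (r = 0.767) and Nipped-A (r = 0.754), and for dock Pde9 (r = 0.879) and para (r = 0.851). The 8 points share their libraries and depths, and at the 10 to 34 reads of Eph, lea, dock and Sema-1a single reads move them.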

How the data were processed

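Per the labels' protocols, head or S2 RNA was freed of ribosomal RNA with Ribominus, incubated with 3 units of RNase R per µg for 15 min at 37 °C or mock treated, and made into TruSeq libraries. CASAVA, Bowtie and the build dm3 are named in the submitters' processing notes; the rule that called a junction was not given in the sources used here. The deposited values are counts of reads per back-splice junction and library, in a table for each head replicate, for S2 cells and for the stranded library. No table lists a junction with fewer than 2 reads in all, so a junction absent from a table is not a measured 0.

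Counts were tested with edgeR 4.0.16 (quasi-likelihood F-test, R 4.3.3) over all junctions listed in both head tables with at least 10 reads summed over the fitted libraries and at least 1 read in 2 or more of them. The library size was the sum of listed reads, and normalization factors came from TMM over the 100 most abundant tested junctions. The 16 head libraries entered the treatment fit with the RNA sample as a block, since the series text ties each RNase R library to a mock library of the same RNA. Title number and genotype were fitted together in the 8 libraries of a treatment. Calls have a two-sided Benjamini-Hochberg adjusted p below 0.05 over all tested junctions, and SE is the log2 fold change divided by the root of F. DESeq2 1.42.0 (its floor on fitted means lowered), other scalings and filters and left-out libraries were alternatives. The fits were tested on simulated data.

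Named in full were each gene's most abundant head junction, every called junction and every junction with at least 100 head reads. These junctions, the genes and the lists were chosen with earlier results of these data known. Exons came from the BDGP6 annotation by length, with no conversion between builds.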

Additional observations from a re-analysis of the deposited data

Results flagged for a closer look

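A value that stood apart from the rest of its group was looked for in 27 combinations of a junction and a group of 4 to 8 libraries, and 4 were found; chance alone flags about 1 in 20 groups. The Sema-1a junction 2L:8664158-8665518 had 25.4 reads per 10000 in WT18 mock replicate 1, on 4 reads, with the other 7 mock head libraries between 0 and 11.7. The Eph junction 4:631911-634421 had 6.53 in slow18 RNase R replicate 1, on 4 reads, beside 0 to 2.05 in the other 7 RNase R head libraries and 1.64 to 2.05 in the other 3 libraries of 18, and it stood apart in both groups. The lea junction 2L:1395903-1397252 had 5.74 in WT18 RNase R replicate 1, on 7 reads, with the other 7 RNase R head libraries between 0 and 2.39.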

How the results depend on the processing

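Single junctions and gene sums under an alternative kept their direction and side of the threshold in 433 cases, passed it newly in 9 and turned in 16. None of the 16 was a called difference, and the cause was not tested. Alternatives in which a junction was not tested or had no adjusted p are not among these cases. The called Eph junction was lost in this way with any library of 18 left out, in DESeq2 and with a minimum of 50 reads. Counts of calls moved more. For RNase R against mock (99 junctions, 85 gene sums) TMM over all junctions gave 305 and 200 and a minimum of 50 reads 50 and 44, which tests fewer, and leaving out an RNA sample gave 66 to 89 junctions. For 29 against 18 in RNase R heads (186 and 128) DESeq2 gave 85 and 67, a minimum of 50 reads 115 junctions, and leaving out a library 110 to 187 junctions. In mock heads (12) DESeq2 gave 1, a minimum of 50 reads 4, no filter 3 and leaving out a library 1 to 13. For slow against WT in RNase R heads (39 and 42) DESeq2 gave 13 and 18, no filter 27 sums, and leaving out a library 15 to 33 junctions and 13 to 55 sums. In mock heads (0) a minimum of 50 reads gave 2 and leaving out a library 0 to 2, and genotype by title number (0) gave 0 to 1.

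On the log2 scale, plexA between 29 and 18 in RNase R heads was 0.22 with TMM over all, 0.20 with relative log expression and 0.20 with DESeq2, and -0.207 to 0.032 with a library left out; its sum was -0.063 to 0.222. In mock heads TMM over all gave 0.12 for 29 against 18 and -0.13 for slow against WT, and leaving out a library -0.021 to 0.198 for slow against WT. Leaving out a library gave -0.11 to 2.91 for Eph between treatments, -0.015 to 1.188 for dock and -0.918 to 0.023 for Sema-1a between slow and WT, and -2.41 to 2.28 for the Lar genotype by title number term. Correlations of deviations between libraries of the same replicate number were -0.003 to 0.203 in RNase R heads (314 junctions) and -0.227 to 0.25 in mock heads (30 junctions). These values do not settle whether the replicate numbers pair the samples. With the replicate block the mock count for 29 against 18 was 7.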
